A study of Mus musculus with 54 samples.

Results

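The 39 genes described here encode proteins that copy DNA and that divide the copied chromosomes, and they were read in the mouse small intestine as 2 lists. The replication list holds 16 genes and the mitosis list 23, listed by name, out of 48059 named entries of the mRNA table and 27998 genes of the single-cell matrices. All 39 were found in both. The series holds 54 samples on miR-375, a microRNA, of which 16 mRNA libraries and 4 single-cell samples were used here. The mRNA came from crypt cells of C57BL/6J mice sorted for a low level of Sox9-EGFP, a green fluorescent reporter of the transcription factor gene Sox9 that is known to be low in intestinal stem cells, in 4 groups of 4 libraries. The groups were chow-fed mice, mice on a high fat diet, germ-free mice and conventionalized mice, a term for formerly germ-free animals that were given a microbiota, and all of them carried the reporter. The single-cell samples were dissociated small intestinal cells of mice 12 months old, wild type or miR-375 knockout, with 1 sample of each genotype in each of 2 sets. Their strain is spelled C57BL6/2J in the labels. The labels do not say how many mice went into a sample, nor that the libraries of a group came from separate mice, so p-values measure the spread between these samples, which may be technical.

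A dividing cell first loads the ring of Mcm2 to Mcm7 onto origins with the help of Cdc6 and Cdt1, is driven into S phase by cyclin E with its kinase, and copies its DNA with the sliding clamp Pcna and with nucleotides made by Rrm1, Rrm2, Tyms and Tk1. It then enters mitosis through Cdk1 with cyclins A and B, builds a spindle with kinesins and Aurora kinases, and exits through the anaphase-promoting complex, which Cdc20 activates. Replication genes are textbook targets of E2F factors, and many mitosis genes are controlled through a CHR element, a short promoter motif bound by the DREAM and MuvB complexes, often beside CCAAT boxes bound by NF-Y. In the intestine these genes are known for their activity in crypts, where stem cells and their transit-amplifying daughters divide, and for their silence in the mature cells of the villus.

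The promoters show how the lists differ in sequence. RefSeq windows of GRCm38.p6, from 250 bases before to 50 bases after a gene's start, matched 13 of the 16 replication genes and 19 of the 23 mitosis genes. The unmatched genes were Mcm4, Gins2, Ccne2, Ccna2, Aurkb, Kif20a and Tpx2. An E2F core on either strand, spelled TTGGCGC or with the variant letters TTCCCGC or else TTCGCGC or finally TTGCCGC, was in the windows of 8 of 13 replication genes (61.5%) and 3 of 19 mitosis genes (15.8%), against 12.1% of the windows of protein-coding genes. Matches that overlap on opposite strands were counted separately. The CHR core TTTGAA was in 1 of 13 replication genes (7.69%), namely Mcm2, and in 14 of 19 mitosis genes (73.7%), against 16% of the windows of protein-coding genes. CCAAT was in 61.5% and 89.5%, against 38.2%. All 14 mitosis genes with a CHR core also held CCAAT, a pair found in 6.38% of the windows of protein-coding genes. A match is a run of letters and not a measured binding site.

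The 250 bases before the start are printed for Mcm6 and Mcm3 (ring subunits), Top2a (the enzyme that untangles sister DNA) and Cdk1 (the mitotic kinase), which are among the genes of their list with the most matches. Mcm6 shows E2F matches, Top2a CHR matches, Cdk1 both kinds and Mcm3 CCAAT boxes without either. All 4 lie on the minus strand, at chr1:128359706-128359955, chr1:20820313-20820562, chr11:99024190-99024439 and chr10:69352913-69353162 of GRCm38.p6, and are written 5′ to 3′ along the gene with the matched motifs in capitals.
Mcm6: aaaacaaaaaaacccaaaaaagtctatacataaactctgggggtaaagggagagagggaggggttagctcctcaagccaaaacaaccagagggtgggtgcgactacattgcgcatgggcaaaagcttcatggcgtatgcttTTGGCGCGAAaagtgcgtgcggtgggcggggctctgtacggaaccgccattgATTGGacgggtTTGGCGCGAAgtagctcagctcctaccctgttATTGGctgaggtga
Mcm3: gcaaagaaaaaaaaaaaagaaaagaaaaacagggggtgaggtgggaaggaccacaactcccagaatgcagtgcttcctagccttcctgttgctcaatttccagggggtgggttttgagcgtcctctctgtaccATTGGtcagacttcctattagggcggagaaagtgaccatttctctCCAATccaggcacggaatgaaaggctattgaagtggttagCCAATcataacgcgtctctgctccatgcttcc
Top2a: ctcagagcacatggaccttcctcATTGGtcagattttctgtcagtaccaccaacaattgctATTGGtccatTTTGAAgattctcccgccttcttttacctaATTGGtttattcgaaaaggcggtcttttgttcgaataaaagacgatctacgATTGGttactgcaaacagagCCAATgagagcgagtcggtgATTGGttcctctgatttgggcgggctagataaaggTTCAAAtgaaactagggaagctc
Cdk1: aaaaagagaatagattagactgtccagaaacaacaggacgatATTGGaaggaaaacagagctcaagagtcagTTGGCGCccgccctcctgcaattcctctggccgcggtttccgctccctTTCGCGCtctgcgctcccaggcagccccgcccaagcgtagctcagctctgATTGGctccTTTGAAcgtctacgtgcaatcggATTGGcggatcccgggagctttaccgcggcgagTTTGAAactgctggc
Positions are counted back from the base before the start, which is -1. Mcm6 carried 4 E2F matches here, which overlap in pairs, the first at -109 and the nearest to the start at -43. Mcm3 carried its 3 E2F matches after the start, outside the printed bases, and 3 CCAAT boxes before it. Top2a carried 2 CHR cores, at -179 and -23, and 6 CCAAT boxes. Cdk1 carried both kinds, with CHR cores at -71 and -15 and E2F cores at -178 and -130.

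The mRNA values are normalized counts, which sum to 10688863 to 19124357 a library. If the commonest value above 0 in a library is taken as 1 read, 47.2% to 55.9% of its values above 0 are whole multiples within 0.01. The depth was then about 6830000 to 12700000 reads in the germ-free and 10400000 to 21700000 in the conventionalized libraries. It was 14300000 to 21800000 in the chow and 15400000 to 21500000 in the high fat diet libraries. Over all 16 libraries, Sox9 lay between 2146 and 6705 normalized counts and the epithelial gene Epcam between 14073 and 37732. The stem cell receptor gene Lgr5 lay between 378 and 5167. The low end of each range was germ-free. Germ-free libraries lay at 2146 to 4435 for Sox9, 14073 to 23145 for Epcam and 378 to 1478 for Lgr5. In the same order, conventionalized libraries lay at 3098 to 6672.5, 21656 to 35765 and 976 to 5167. Chow libraries lay at 4303 to 6705, 24407 to 33924 and 1880 to 2802. The gene Vil1 did not share this pattern, at 5438 to 7328 in germ-free and 4485 to 7832 in conventionalized libraries. The part of these levels in the list values was not tested. Germ-free replicate 3 had the smallest read depth and was the lowest of all in both lists. The single-cell samples held 1218 knockout and 1167 wild type Epcam-positive cells in set 1 and 2486 and 2035 in set 2, with 24018281 to 50546126 UMIs a sample (unique molecular identifiers, which count RNA molecules). Knockout and wild type shared 1 cell barcode in set 1 and 12 in set 2, and 0 were shared across sets. Mir375 was listed at 0 in all 16 mRNA libraries and has no row in the matrices, so the knockout could not be checked in these data.

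**Figure D1:**
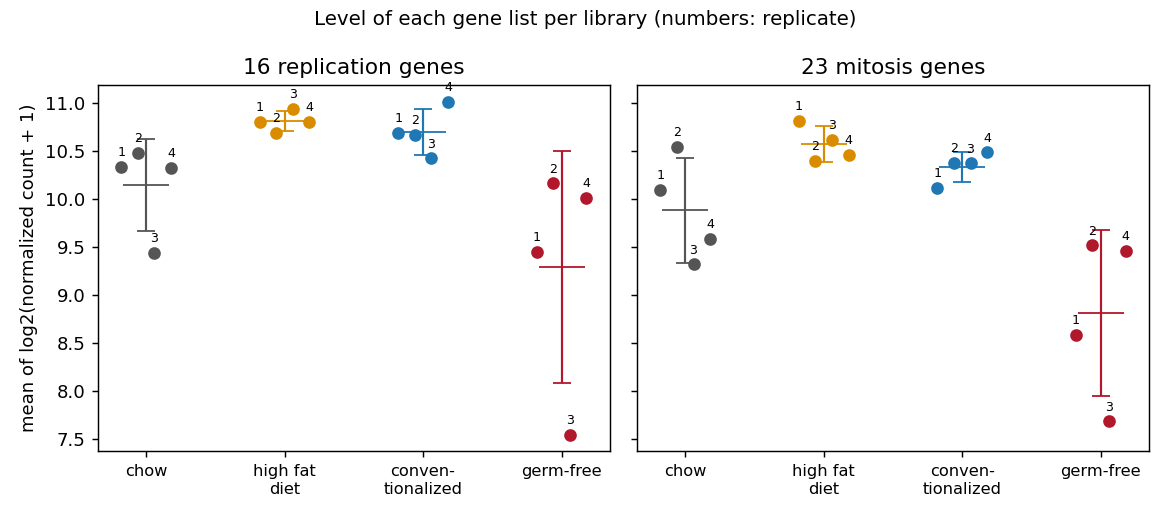
Mean log2(normalized count + 1) over the 16 replication genes (left) and the 23 mitosis genes (right) in each library, as points numbered by replicate, with the group mean and SD (n = 4). Germ-free libraries spread from 7.54 to 10.16 for replication and from 7.68 to 9.51 for mitosis, and chow replicate 3 is the lowest chow library in both.

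All 39 genes had lower values in germ-free than in conventionalized Sox9-EGFP Low cells, and 7 mitosis genes passed the test: Cdk1, Cdc20, Plk1, Aurkb, Mki67, Cenpf and Kif23 fell. These are 7 of 23 mitosis genes, against 0.292% of the 20214 genes tested that were called lower and 2.24% called in either direction. None of the 16 replication genes passed (limma, adjusted p under 0.05), while 15 of 16 had an unadjusted p under 0.05, as did 22 of 23 mitosis genes, against 10.3% of all genes with such a p and a lower value. The median log2 difference was -1.37 for replication and -1.62 for mitosis, beside 0.11 for all genes tested. Every germ-free library lay below every conventionalized one for 12 replication and 17 mitosis genes, against 6.21% of all genes. In bulk RNA, fewer dividing cells and less of these RNAs per dividing cell cannot be told apart.

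Kif23 (chr9:61915905-61946774 in GRCm38), a kinesin of the central spindle that the last step of division needs, had the lowest adjusted p of the 39. Its germ-free libraries read 244, 378, 86.1 and 292 normalized counts, and its conventionalized libraries 815, 974, 831 and 978. The groups did not overlap, and Kif23 fell by 2.03 ± 0.39 on the log2 scale (SE, n = 4 a group, adjusted p = 0.0216). Aurkb (chr11:69045647-69051664), the kinase that corrects faulty spindle attachments, read 580.3, 944, 187 and 821 against 1662, 1856, 2119.5 and 2451, again with no overlap. It fell by 1.89 ± 0.43 (adjusted p = 0.0392). Cdk1 (chr10:69335146-69352938) read 599, 1425, 242 and 611 against 2123, 1682, 2222 and 2197, and fell by 1.77 ± 0.42 (adjusted p = 0.0474). For these 3 genes the germ-free library nearest to the other group was replicate 2 and the most distant was replicate 3.

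Plk1, a kinase of mitotic entry and spindle assembly, read 504, 1091, 231 and 865 in germ-free against 1734, 1834, 1869 and 2324 in conventionalized libraries, and fell by 1.74 ± 0.40 (adjusted p = 0.0448). Mki67, whose protein Ki-67 coats mitotic chromosomes and is widely used to mark dividing cells, read 285, 492, 316 and 535 against 627, 1776, 1333 and 1027. Its groups did not overlap, and it fell by 1.499 ± 0.34 (adjusted p = 0.0406). Cenpf, a protein of the kinetochore, fell by 1.70 ± 0.38 from 306 ± 50.8 in conventionalized to 100.3 ± 39.3 in germ-free cells (SD, n = 4 each; adjusted p = 0.0398). Cdc20 fell by 1.63 ± 0.37 from 3413 ± 290.2 to 1239 ± 581 (adjusted p = 0.0431). Of the 7 genes that fell, 6 had a promoter window, and a CHR core and CCAAT were in all 6. The same pair was in 14 of all 19 mitosis genes with a window, among them Ccnb2 and Top2a, which did not pass. A link between the motifs and the differences was not tested.

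Ccnb2, a B-type cyclin, had the largest log2 difference of the mitosis genes without passing the test. It read 535, 1085, 117 and 970.2 against 2201, 1819.8, 2056 and 2392, a difference of -2.05 ± 0.55 (adjusted p = 0.0814), and the groups did not overlap. Birc5, survivin of the chromosomal passenger complex, read 666, 1370.4, 164 and 930.4 against 2211, 1339.7, 2029 and 2582 (-1.70 ± 0.52, adjusted p = 0.12), and 1 germ-free library lay above the lowest conventionalized one. Ccnb1, the other B-type cyclin, read 678, 1284, 268 and 1217 against 2106, 2098, 2349 and 2571 (-1.64 ± 0.42, adjusted p = 0.067). Top2a read 681, 1273, 455 and 1628 against 1650.4, 2755, 2194 and 2641 (-1.34 ± 0.37, adjusted p = 0.0888). For the last 2 genes germ-free replicate 3 was again the lowest library and the groups were apart. Bub1, a checkpoint kinase, had the smallest difference of the 39, at -0.83 ± 0.49, adjusted p = 0.337, and germ-free replicate 4, at 466, exceeded 3 of the 4 conventionalized libraries. Its partner Bub1b, at -1.08 ± 0.37, adjusted p = 0.155, was also highest in germ-free replicate 4.

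Among replication genes, the 6 Mcm genes had log2 differences between -1.05 (Mcm4) and -1.43 (Mcm7). Mcm2 read 1432, 1516, 679 and 2136 in germ-free against 2472, 3775, 2113 and 4042 in conventionalized libraries (-1.16 ± 0.35, adjusted p = 0.114), and the groups overlapped by 1 germ-free library. The clamp gene Pcna read 1790.3, 2785, 595 and 1621 against 3256, 2912, 2926 and 4050.2 (-1.14 ± 0.39, adjusted p = 0.16), without overlap. The loading factor Cdt1 read 684, 1091, 116 and 962 against 1628, 1771, 1471 and 2296 (-1.71 ± 0.56, adjusted p = 0.144). The other loading factor, Cdc6, read 236, 348, 33.1 and 349 against 586, 588, 417 and 634 (-1.63 ± 0.61, adjusted p = 0.187). Neither overlapped, and both had their lowest value by far in germ-free replicate 3. Tyms, which makes thymidylate, read 847, 1651, 275 and 924 against 2283, 2077, 2139.8 and 3098 (-1.61 ± 0.43, adjusted p = 0.0814). Rrm1 and Rrm2, the subunits of ribonucleotide reductase, had differences of -1.09 ± 0.30 and -1.45 ± 0.41, the kinase gene Tk1 one of -1.43 ± 0.47 and Gins2, of the replicative helicase, one of -1.31 ± 0.41, with adjusted p values from 0.0818 to 0.144.

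Ccne1, a cyclin E gene, was listed at 0 in germ-free replicate 3 and read 249.2, 327 and 305 in the other germ-free libraries, against 366, 304, 335 and 429 in the conventionalized ones. Its log2 difference of -2.33 ± 1.45 (adjusted p = 0.356) rested on that library, and without it was -0.28. Each of the 7 genes that fell passed in 2 to 4 of the 8 fits that left out 1 library. Without germ-free replicate 3 the list medians were -0.87 for replication and -1.12 for mitosis, and 8 mitosis genes passed. The share of all genes called was then 1.38%. The number of mitosis genes called was 0 without germ-free replicate 1, where 1 of all 20289 genes tested was called, 12 without replicate 2 (3.38% of all genes) and 9 without replicate 4 (2.05%). Leaving out a conventionalized library, from replicate 1 to replicate 4, gave 1, 0, 1 and 0 calls, against 0.711%, 0.729%, 1.69% and 1.23% of all genes. Without germ-free replicate 2, 5 replication genes also passed. A fit that took its spread from all 4 groups called 12 replication and 20 mitosis genes, against 8.27% of all genes. Quantile normalization, which moved the median of all genes from 0.11 to -0.02, left 1 of the 7 genes called, Kif23, with list medians of -1.19 and -1.43.

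**Figure D2:**
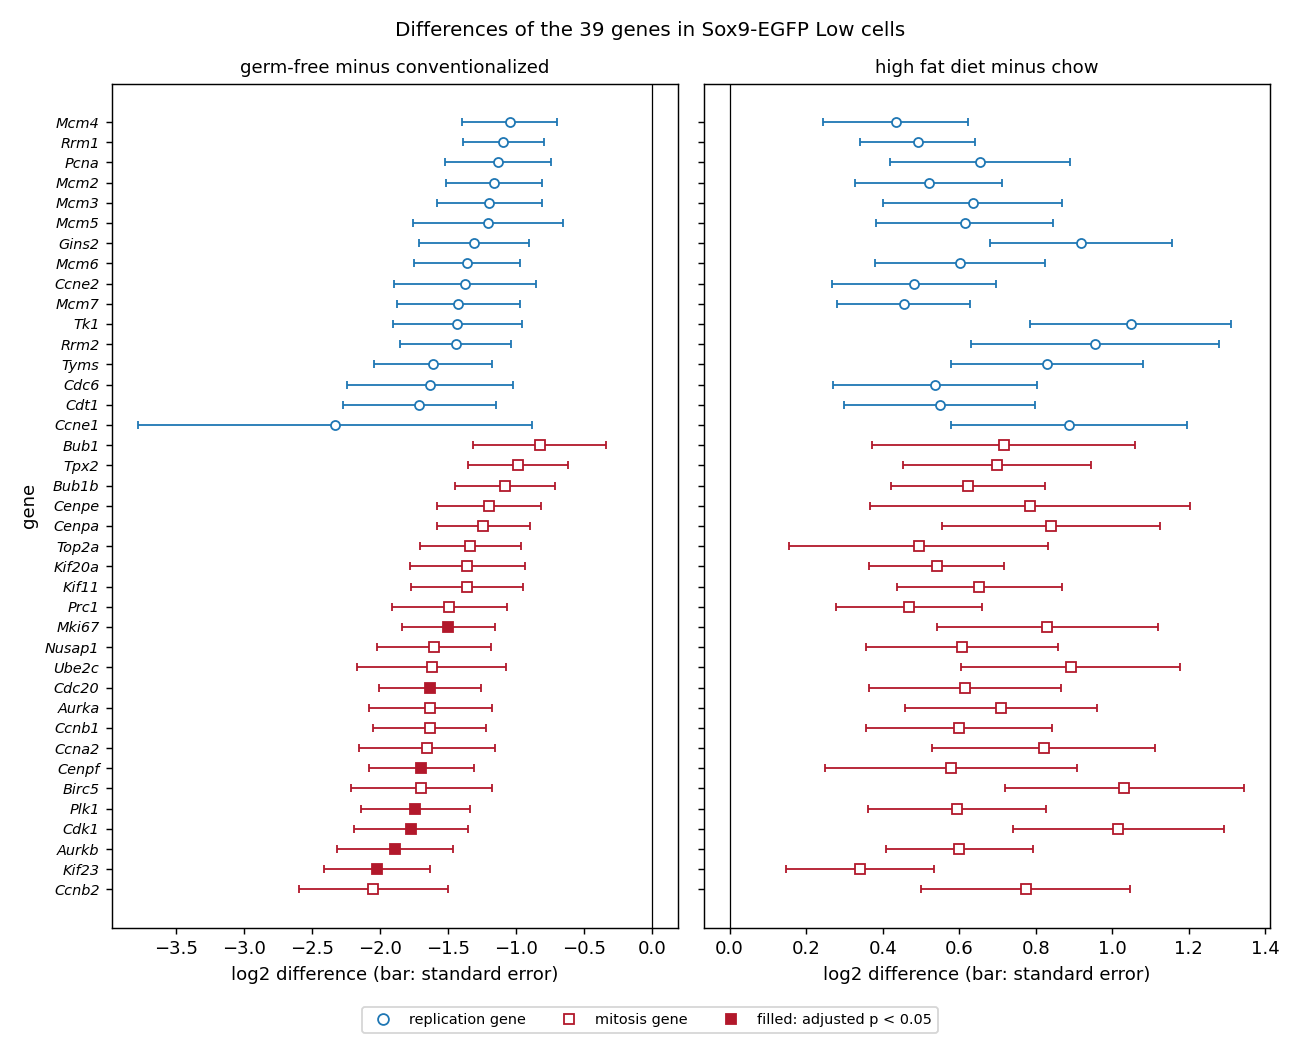
Log2 difference of each of the 39 genes with its standard error, germ-free minus conventionalized (left) and high fat diet minus chow (right), 4 libraries a group, circles for replication and squares for mitosis. All 39 points lie below 0 on the left and above 0 on the right, and the 7 filled squares on the left passed the test.

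Related genes outside the 39 were read from 3 lists. Of all 20214 genes tested, 394 rose and 59 fell. Of 47 other mitosis genes, 13 fell and none rose, with a median log2 difference of -1.41. Of the 13 that passed, Kif18b (-1.87 ± 0.32, adjusted p = 0.0139), a kinesin that shortens microtubules, had the largest difference. Mad2l1 (-1.83 ± 0.40, adjusted p = 0.0346), a checkpoint protein, and Ckap2l (-1.81 ± 0.37, adjusted p = 0.028), a spindle protein, came next. The largest difference of the 47 was -2.96, in a gene that did not pass. Of 38 other replication genes, 1 fell, the primase subunit Prim2 (-1.53 ± 0.33, adjusted p = 0.0315), and the median was -1.10. Of 28 tested genes of G1 entry, E2F factors and arrest, 2 rose and 1 fell. Cdkn1c, an inhibitor of cyclin-dependent kinases, rose by 1.63 ± 0.26 from 355 ± 53.2 to 1114 ± 302 (SD, n = 4 each; adjusted p = 0.0129). Cdkn1a, the p21 inhibitor, rose by 1.42 ± 0.31 from 2006 ± 655 to 5300.2 ± 1442 (adjusted p = 0.0346). Foxm1, a transcription factor of mitosis genes, fell by 1.00 ± 0.24 from 590.4 ± 21.7 to 297 ± 49.2 (adjusted p = 0.0475).

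Markers of other cells moved with the same groups. All 15 enteroendocrine markers were higher in germ-free cells (11 called, median 1.91), with a summed level of 277730 to 567805 against 46437 to 148115 normalized counts. All 10 stem markers were lower (none called by limma, 7 with an unadjusted p under 0.05, median -1.27), with 14393 to 71105 against 60757 to 126565. The 7 tested of 11 stromal or endothelial markers were higher (1 called, median 1.89), at summed levels of 451 to 1052 against 67.4 to 495. No marker of these lists was at 0 in every library of either group. Their part in the lower values of the 39 genes, and that of read depth, was not tested.

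The high fat diet libraries had higher means than chow for all 39 genes, but none passed the test (limma, 0 of 16 and 0 of 23, against 0.822% of 16421 genes called). An unadjusted p under 0.05 was reached by 14 replication and 18 mitosis genes, against 14.9% of all genes with such a p and a higher value. The median log2 difference was 0.61 for replication and 0.65 for mitosis, beside 0.05 for all genes. Every high fat diet library lay above every chow library for 14 of 16 replication genes (not Cdc6 and Ccne2) and for 2 of 23 mitosis genes (Cdk1 and Bub1b), against 8.81% of all genes.

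Tk1, the thymidine kinase of nucleotide salvage, had the largest log2 difference of the replication list (1.05 ± 0.26, adjusted p = 0.0809), at 3009 ± 463 in high fat diet and 1533 ± 602 in chow cells (SD, n = 4 each). Pcna read 4275, 3816, 5283 and 4648 in high fat diet against 3387, 3619, 1688 and 3149.9 in chow libraries (0.65 ± 0.23, adjusted p = 0.118). Mcm2 read 3024, 3277, 3048 and 2851 against 2509.7, 2342, 1380.0 and 2505 (0.52 ± 0.19, adjusted p = 0.125). For both genes the groups were apart, and chow replicate 3 was far below the other chow libraries. Tyms read 3549, 2724, 3777 and 3391 against 2072, 2674, 1082 and 2072 (0.83 ± 0.25, adjusted p = 0.0951). Cdt1 read 1489, 1486, 1677 and 1544 against 1154, 1434, 583 and 1293 (0.55 ± 0.25, adjusted p = 0.192). Ccne1 read 624, 397, 371 and 313 against 296, 269.8, 119.8 and 255 (0.89 ± 0.31, adjusted p = 0.113). The groups of these 3 genes were apart as well, while those of Cdc6 overlapped, at 433, 473, 525 and 409 against 364, 376, 169.5 and 424 (0.54 ± 0.27, adjusted p = 0.228).

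Birc5 had the largest log2 difference of the mitosis list, reading 4092, 2652, 2975 and 2741 in high fat diet against 1712, 2774, 874 and 1216 in chow libraries (1.03 ± 0.31, adjusted p = 0.0951). Cdk1 read 4019.7, 2858, 3186 and 3057 against 1844, 2709, 963 and 1388 (1.02 ± 0.28, adjusted p = 0.087). Mki67 read 1721, 1338, 1431 and 1619 against 971, 1570.1, 546 and 639 (0.83 ± 0.29, adjusted p = 0.113). Chow replicate 2 was the highest chow library of all 3 genes, and for Birc5 and Mki67 it lay inside the range of the high fat diet group. Ccnb1 read 3096, 2401, 2502 and 2163 against 1944, 2590.4, 1205 and 1255 (0.60 ± 0.24, adjusted p = 0.151). Top2a read 2205, 1552, 2452 and 2277 against 1732, 2849, 785 and 1253 (0.49 ± 0.34, adjusted p = 0.386). The highest of the 8 libraries in Top2a was chow replicate 2. Kif23 had the smallest difference of the list (0.34 ± 0.19, adjusted p = 0.291), with Ccnb2 at 0.77 ± 0.27, Aurkb at 0.60 ± 0.19 and Plk1 at 0.59 ± 0.23, and the groups of these 4 genes overlapped.

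Chow replicates 2 and 3 pulled these values in opposite directions. Without replicate 2, 4 replication and 18 mitosis genes passed, as did 2590 of all 16658 genes tested. Without replicate 3 none did, against 0.428% of all genes, and the medians were 0.37 and 0.52. The diet of replicate 3 is also in doubt, because the small RNA columns that carry the same numbers name the other diet, and without both replicates 3 the medians were 0.32 and 0.48 with 0 of the 39 genes called. The column names of these 8 libraries fall into runs of numbers, whose meaning the labels do not give. The mean log2 difference between 2 high fat diet and 2 chow libraries was 0.34 (replication) and 0.29 (mitosis) in the run of replicates 1 and 2, and 0.99 and 1.09 in the run of replicates 3 and 4.

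Of the other replication genes, 1 of 38 rose on the high fat diet: Clspn, a mediator of the replication checkpoint, by 1.199 ± 0.22 from 109.9 ± 29.8 to 248 ± 28.8 (adjusted p = 0.0474). Of all 16421 genes tested with limma, 34 were called higher and 101 lower, and 2443 higher and 1940 lower had an unadjusted p under 0.05. None of 47 other mitosis genes and none of 28 genes of G1 entry and arrest passed (limma). At an unadjusted p under 0.05, 29 were higher in the first of these lists and 10 higher and 4 lower in the second. The largest log2 differences were those of Smc2 (0.99 ± 0.32), Spc24 (0.97 ± 0.27) and Cdca3 (0.89 ± 0.29) in the mitosis list and of Cdkn1c (-1.55 ± 0.44), Mycn (1.11 ± 0.31) and E2f8 (1.02 ± 0.28) in the other, with adjusted p values from 0.0875 to 0.101. All 15 enteroendocrine markers were lower on the high fat diet (2 called, median -1.95), at summed levels of 22989 to 106437 against 118347 to 542581. All 12 tuft markers were lower as well (5 called, median -2.25), at 1803 to 9466 against 16150 to 35674. Chow replicate 3 had the highest enteroendocrine and tuft sums of its group and the lowest stem sum. No marker of these lists was at 0 in every library of either group, and the part of these cells in the differences was not tested.

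**Figure D3:**
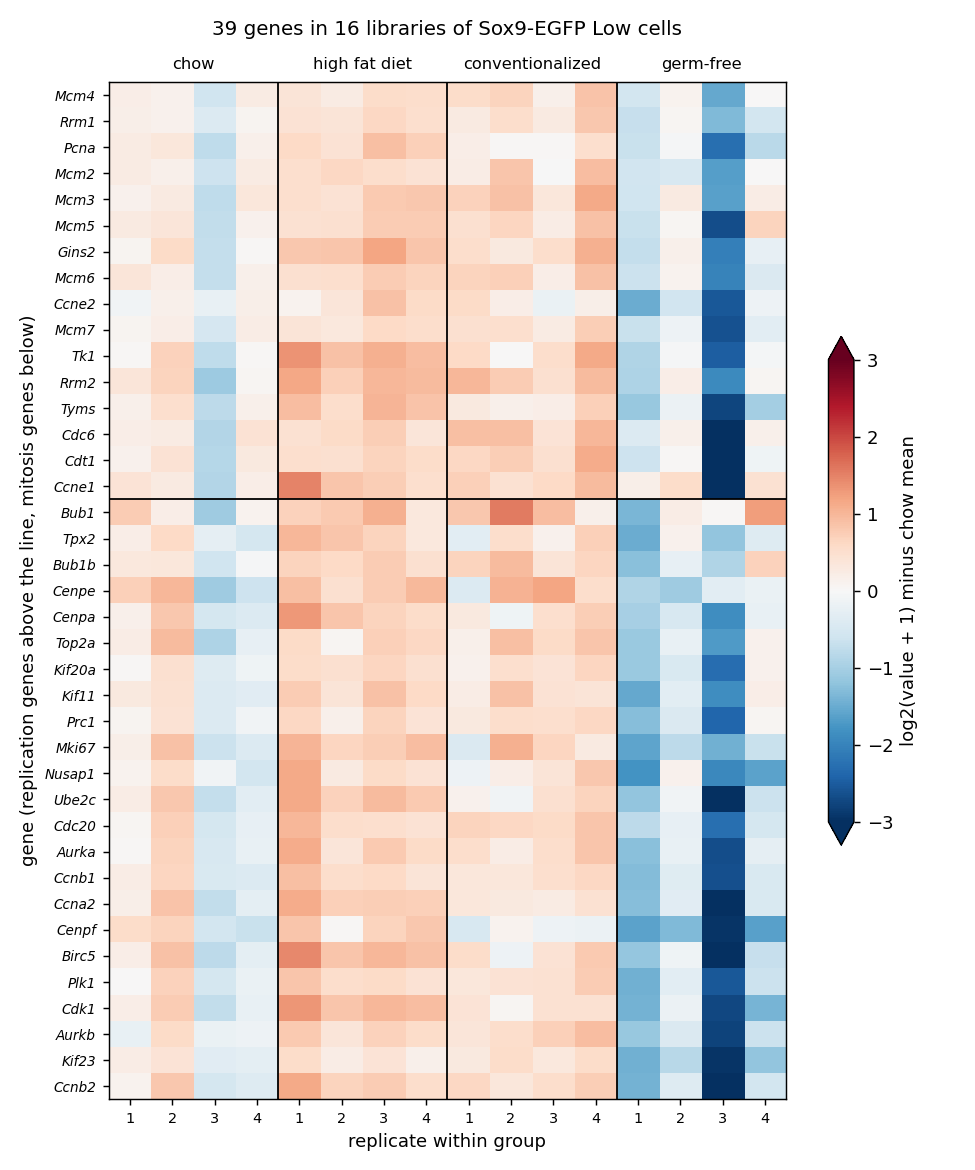
Log2(normalized count + 1) of the 39 genes in the 16 libraries, each gene relative to its mean in the 4 chow libraries, with replication genes above the line and mitosis genes below it, and colours ending at 3 in either direction. Germ-free replicate 3, the library with the lowest list means (7.54 and 7.68), is the darkest blue column, and Bub1, Bub1b and Cenpe are among the genes that are paler there.

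Against chow, the conventionalized and the germ-free group share the same 4 control libraries with each other and with the high fat diet comparison. Column names begin with BC in the chow and high fat diet libraries and with CD or GF in the conventionalized and germ-free ones. The labels do not say whether these names mark separate batches. If they do, batch and group cannot be told apart in the conventionalized and germ-free comparisons with chow. Conventionalized cells had positive log2 differences for 16 of 16 replication and 22 of 23 mitosis genes, none of which passed (limma, against 0.0948% of 17941 genes called, all of them lower). An unadjusted p under 0.05 was reached by 10 replication and 5 mitosis genes, against 3.67% of all genes with such a p and a higher value. Every conventionalized library lay above every chow library for Mcm7, Rrm1, Cdt1, Ccne1 and Bub1b, 4 of 16 and 1 of 23, against 2.17% of all genes. The medians were 0.56 and 0.45, and 0.35 and 0.30 without chow replicate 3. Cdc6 (0.80 ± 0.28, adjusted p = 0.338) and Bub1 (0.86 ± 0.39, adjusted p = 0.436) had the largest differences of their lists, and Cenpf (-0.18 ± 0.32, adjusted p = 0.851) was the 1 gene with a negative value. Pcna (0.20 ± 0.25), Mcm2 (0.49 ± 0.27), Mki67 (0.38 ± 0.37), Top2a (0.61 ± 0.34) and Ccnb1 (0.45 ± 0.24) had adjusted p values from 0.508 to 0.778. All 12 tuft markers (median -2.30) and all 15 enteroendocrine markers (median -1.41) were lower than in chow, with none called (limma; 12 and 14 with an unadjusted p under 0.05), and their part was not tested.

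Germ-free cells had negative log2 differences from chow for 16 of 16 replication and 22 of 23 mitosis genes, and none passed (limma, 0% of 19475 genes called). An unadjusted p under 0.05 was reached by 2 replication and 14 mitosis genes, against 8.26% of all genes with such a p and a lower value. The medians were -0.79 and -1.12, and -0.29 and -0.66 without germ-free replicate 3. Cenpf read 113, 135, 43.9 and 109.5 in germ-free against 499, 548, 234 and 214 in chow libraries, the largest difference of the mitosis list (-1.87 ± 0.44, adjusted p = 0.0982). Kif23, Aurkb and Mki67 were the other genes whose groups did not overlap, at -1.60 ± 0.42, -1.25 ± 0.45 and -1.12 ± 0.35 (adjusted p = 0.0982, 0.124 and 0.104), which makes 0 of 16 and 4 of 23, against 5.2% of all genes. The 2 replication genes with an unadjusted p under 0.05 were Tyms (-1.28 ± 0.48, adjusted p = 0.132) and Ccne2 (-1.19 ± 0.50, adjusted p = 0.162). Pcna (-0.94 ± 0.43), Mcm2 (-0.67 ± 0.35), Ccnb1 (-1.18 ± 0.47) and Top2a (-0.73 ± 0.46) had adjusted p values of 0.185, 0.219, 0.145 and 0.299, with overlapping groups. Markers of other cells also differed between these groups, with none called (limma). All 12 tuft markers were lower in germ-free cells (12 with an unadjusted p under 0.05, median -1.40), at summed levels of 6418 to 14595 against 16150 to 35674. All 10 stem markers were lower (7 with such a p, median -0.93), at 14393 to 71105 against 64080 to 115074, and the 7 tested stromal or endothelial markers were higher (6 with such a p, median 2.55), at 451 to 1052 against 31.8 to 241. No marker of these lists was at 0 in every library of either group, and their part was not tested.

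Cdkn1a and Cdkn1c, which rose in germ-free against conventionalized cells, stood at 5894 ± 3149.8 and 1051 ± 701 in chow (SD, n = 4), and their germ-free to chow log2 differences were -0.05 ± 0.36, adjusted p = 0.935 and 0.29 ± 0.42, adjusted p = 0.649. In order of their mean levels, both lists ran from germ-free through chow and conventionalized to the high fat diet. This order mixes libraries with BC column names and libraries with CD or GF names. On the mean of log2(normalized count + 1) over the list the groups stood at 9.29 ± 1.204, 10.14 ± 0.48, 10.69 ± 0.24 and 10.81 ± 0.10 (SD, n = 4) for replication and at 8.81 ± 0.86, 9.88 ± 0.55, 10.33 ± 0.16 and 10.57 ± 0.18 for mitosis. No gene of either list passed the test between the neighbours in this order that were compared, germ-free with chow and chow with conventionalized, and conventionalized was not tested against the high fat diet. Per kilobase of exon in the GENCODE annotation of GRCm38, Pcna had the highest mean level of the replication list in chow (1234 normalized counts per kb) and Ccne2 the lowest (33.0). In the mitosis list Cdc20 (1207) and Ube2c (1112), which both serve the anaphase-promoting complex, were the highest and Cenpf (24.2) the lowest.

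In single cells, no gene of either list passed the test between miR-375 knockout and wild type Epcam-positive cells. In edgeR's quasi-likelihood test of the summed UMI counts of 2 samples against 2, 0 of 39 and 0% of 13254 genes passed, 0 of 39 and 0.687% had an unadjusted p under 0.05, and DESeq2 called 7 genes and none of the 39. The median log2 difference was -0.03 for replication and 0.03 for mitosis. The sets pointed in opposite directions for mitosis genes. In set 1 the knockout was above wild type for 22 of 23 mitosis genes, with a median log2 ratio of 0.19, against 57.7% of all genes. In set 2 it was below wild type for 23 of 23, with a median of -0.22, against 76.1% of all genes. For 22 of 23 mitosis genes and 6 of 16 replication genes the ratio was above 0 in set 1 and below 0 in set 2, as for 46.5% of all genes. Replication genes were above wild type for 7 of 16 in set 1 (median -0.02) and 1 of 16 in set 2 (median -0.11), beside medians of 0.05 and -0.15 for all genes.

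Ube2c, the E2 enzyme of the anaphase-promoting complex, had the most UMIs of the mitosis genes. It stood at 137 and 122 CPM (a gene's UMIs scaled to the sample's total) in knockout and wild type in set 1, and at 158 and 183 in set 2. Birc5 stood at 127 and 106 in set 1 and at 114 and 128 in set 2, and Top2a at 103 and 93.7 and at 111 and 141. All 3 were higher in the knockout in set 1 and lower in set 2. Mki67 was at 73.0 and 56.8 CPM in knockout and wild type in set 1, a log2 ratio of 0.36 (95% counting interval 0.26 to 0.47), and at 94.8 and 112 in set 2, a ratio of -0.24 (-0.29 to -0.18). Intervals of this kind cover counting error only. Over both sets the log2 difference of Mki67 was 0.09 ± 0.27 (SE, adjusted p = 0.99993), and its sign turned without the set 1 wild type sample (-0.18) or the set 2 knockout sample (-0.01). The differences of Top2a (-0.05 ± 0.20), Ccnb1 (-0.02 ± 0.17), Pcna (-0.11 ± 0.63) and Mcm2 (0.06 ± 0.19) were also smaller than their standard errors.

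Of the mitosis genes named above, Kif23 (0.34 in set 1, -0.30 in set 2), Plk1 (0.37, -0.22), Aurkb (0.31, -0.15), Cenpf (0.40, -0.33), Ccnb2 (0.08, -0.20), Cdk1 (0.07, -0.07) and Ccnb1 (0.06, -0.21) had log2 ratios of opposite sign in the sets. Bub1b was the exception among the 23, with -0.21 and -0.25. Tyms, Tk1 and Rrm1 had the most UMIs of the replication genes. Tyms stood at 42.9 and 40.5 CPM in knockout and wild type in set 1 and at 60.7 and 64.7 in set 2, and Tk1 at 42.5 and 39.2 and at 34.0 and 34.4. Rrm1 was lower in the knockout in both, at 29.4 and 30.7 and at 33.3 and 38.0. Ccne1 had the largest ratio of the 39, 1.04 (0.65 to 1.45) in set 1, from 164 knockout and 80 wild type UMIs, and 0.00 (-0.25 to 0.26) in set 2. Pcna, Mcm2, Cdt1 and Cdc6 had ratios of -0.01, 0.06, -0.20 and 0.22 in set 1 and -0.41, -0.03, -0.04 and -0.06 in set 2.

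**Figure D4:**
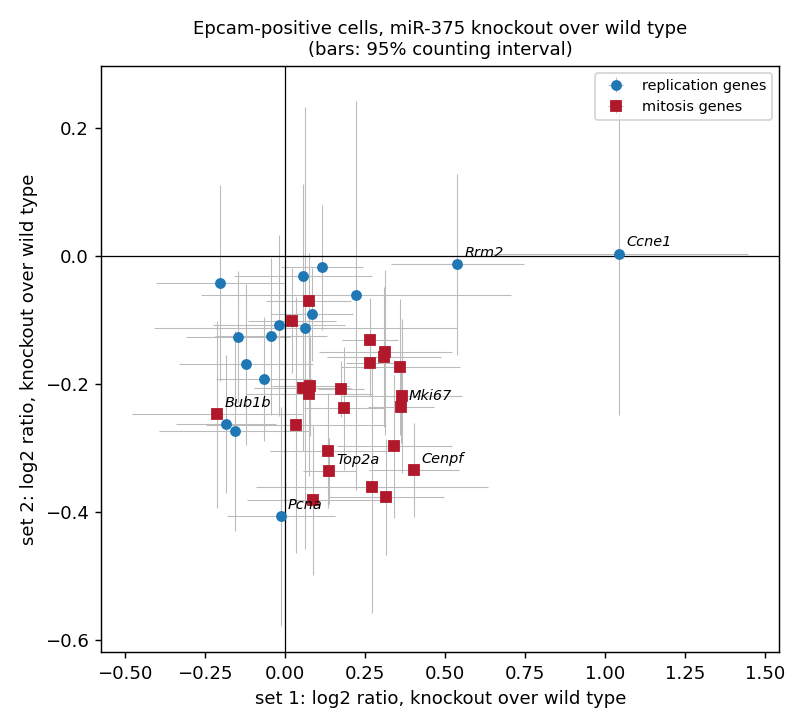
Log2 ratio of knockout over wild type in Epcam-positive cells in set 1 (x axis) and set 2 (y axis) for each of the 39 genes, with 95% counting intervals as grey bars, circles for replication and squares for mitosis. Of the 23 squares, 22 lie right of 0 and below it, and Ccne1 is the circle farthest right.

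The genotypes were also compared by the share of cells with several of these RNAs. A cell was counted when it held UMIs of at least 3 genes of a list after each cell was thinned to 2000 UMIs, which left out 0 cells in set 1 and 120 knockout and 100 wild type cells in set 2. For mitosis the share was 26.7% in knockout and 23.7% in wild type in set 1 and 17.6% and 19.3% in set 2, differences of 2.95 ± 3.48 and -1.65 ± 2.33 percentage points (95% counting interval). For replication it was 7.31% and 7.28% and then 5.83% and 7.08%, differences of 0.02 ± 2.09 and -1.25 ± 1.48. At this thinning depth and Epcam limit, all 4 intervals include 0. Unthinned, the mitosis shares were 50.2% and 47.0% in set 1 and 30.6% and 36.4% in set 2, at median depths of 15992, 16378, 15617 and 21672 UMIs, and the replication shares 46.1%, 45.4%, 28.1% and 33.5%. Thinned to 4000 UMIs, the mitosis difference in set 2 was -4.32. The shares were then 24.5% in knockout (95% counting interval 22.7 to 26.4) and 28.8% in wild type (26.6 to 31.1), without overlap of the intervals. At 2000 UMIs in cells with at least 2 Epcam UMIs, they were 18.8% (17.2 to 20.5) and 22.4% (20.4 to 24.4). Cells that met both rules were 37.6% to 59.1% of the replication cells and 11.4% to 21.7% of the mitosis cells of a sample.

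Cells were then sorted by markers of which none is among the 39, with minimums chosen after the data were seen: 5 markers for enterocyte, goblet, Paneth, enteroendocrine and tuft classes, and 2 stem markers for a stem class among the rest. Cells with no class made up 49.1% and 43.7% of knockout and wild type in set 1 and 33.2% and 52.9% in set 2. The mitosis list summed to 1771 to 2770 CPM in the stem class, 1585 to 1910 in cells with no class and 969 to 1633 in the goblet class over the 4 samples. In the enterocyte class, the absorptive cells of the villus, it summed to 35.3 to 69.3 CPM and in the Paneth class to 96.7 to 253. Cells with at least 3 mitosis genes were 43.0% to 50.6% of the stem class and 0 to 1.37% of the enterocyte class, where 0 of 284 wild type cells of set 2 allows a share of up to 1.06%. That limit is for cells that meet the rule at 2000 UMIs and not for cells that express the genes, since 5.28% of the same cells held an Mki67 UMI before thinning. The replication list had the same order, at 625 to 930 CPM in the stem class and 32.7 to 49.5 in the enterocyte class. Mcm2 had a UMI in 36.0% to 55.6% of stem class cells and 0.35% to 1.94% of enterocyte class cells, unthinned, at median depths of 14860 to 20636 and 12574 to 26029 UMIs. Free RNA in the droplets was not measured, so the low shares of the enterocyte class are not read as expression. Counted over all Epcam-positive cells, those of other classes included, up to 455 cells of a sample were 1 stem marker short of the minimum. Just the minimum was held by 70 to 161.

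The stem class had the opposite signs of all Epcam-positive cells. In the stem class of set 1 the mitosis list stood at 1771 CPM in knockout and 2084 in wild type, a log2 ratio of -0.23 (-0.31 to -0.16), where the sum over all Epcam-positive cells was 997 and 864. In the stem class of set 2 it stood at 2770 and 2468, a ratio of 0.17 (0.12 to 0.21), where the sum over all cells was 1088 and 1271. The intervals of all class ratios treat UMIs as independent and leave out the spread between cells. The stem class held 114 knockout and 77 wild type cells in set 1 and 165 and 126 in set 2. Of these, 43.0% and 50.6% held at least 3 mitosis genes at 2000 UMIs in set 1, and 44.8% and 43.7% in set 2. The 95% counting intervals of these shares overlapped between genotypes in both sets, so the direction was not resolved by cell. Cells with no class had ratios of 0.01 (-0.02 to 0.05) and 0.22 (0.20 to 0.24), and the goblet class had -0.04 (-0.11 to 0.03) and -0.03 (-0.06 to 0.01). The enterocyte class was above wild type in both, at 0.54 (0.21 to 0.86) and 0.51 (0.31 to 0.71). These ratios came from 136 knockout and 204 wild type UMIs in set 1 and 643 and 304 in set 2. Free RNA in the droplets was not measured, so they are not read as a change of expression. The Paneth class had 0.26 (0.09 to 0.43) and -0.88 (-1.02 to -0.75). For replication the stem class had ratios of -0.15 (-0.28 to -0.02) and 0.13 (0.06 to 0.20), and cells with no class -0.14 (-0.20 to -0.09) and 0.31 (0.27 to 0.35), while the goblet class had -0.45 (-0.57 to -0.33) and 0.10 (0.03 to 0.16). With 1 sample of each genotype in a set, these values carry no test.

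The makeup of the samples differed too, in part along with these signs. The enterocyte class held 12.0% of knockout and 23.7% of wild type cells in set 1 and 26.1% and 14.7% in set 2. Enterocyte markers had log2 ratios below 0 for 8 of 8 in set 1 (median -0.85, summed 3918 CPM in knockout and 8732 in wild type) and above 0 for 8 of 8 in set 2 (median 0.62, 13458 and 5975). The 8 measured T lymphocyte markers had ratios above 0 in set 1 (median 0.70, summed 134 and 88.3 CPM) and below 0 in set 2 (median -0.87, 384 and 697). All 6 B lymphocyte or plasma cell markers did the same, with medians of 0.73 and -1.499. The 7 goblet markers had medians of 0.495 in set 1 and -0.29 in set 2, and the 7 Paneth markers -0.03 and 1.14. Other lists did not change sign. Tuft markers were above wild type for 11 of 12 in set 1 (median 0.59) and 12 of 12 in set 2 (median 0.46). The enteroendocrine markers had medians of -0.14 and -0.03, and the stem markers 0.30 and 0.01. The part of these cells in the list sums was not tested beyond the values within classes.

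**Figure D5:**
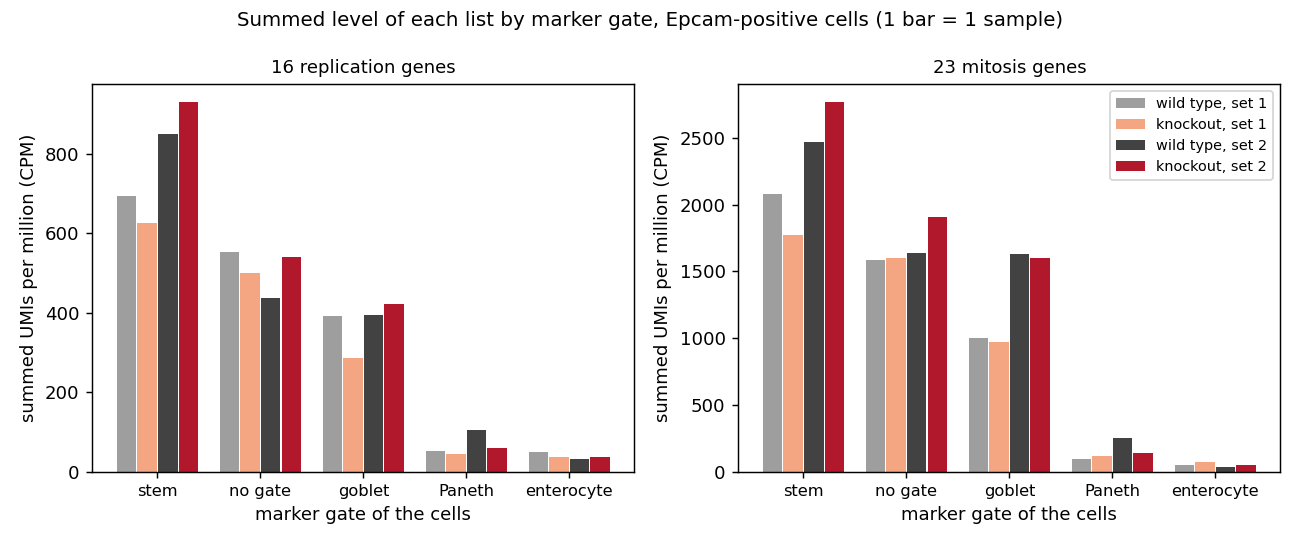
Summed CPM of the replication genes (left) and mitosis genes (right) in 5 classes of Epcam-positive cells (stem, no class, goblet, Paneth and enterocyte), 1 bar for each sample. Of these 5 the stem class is the highest and the enterocyte class the lowest in every sample, and in the stem class knockout is below wild type in set 1 and above it in set 2.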

How the data were processed

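The mRNA values are a signal table that the authors deposited as normalized counts. How they normalized it is not given in the sources used. The single-cell UMI counts are the authors' deposited matrices, with no further change stated. mm10, Cell Ranger, STAR, Salmon and DESeq2 are named, without versions or roles, per the submitters' processing notes, and set 2 was written by software version 3.0.1, per the file headers. Per the labels' protocols, mRNA libraries came from a SMARTer low-input kit followed by Nextera XT and the cells were captured with 10X Genomics Chromium. The small RNA and APC tables were not used.

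Of 48440 mRNA entries, 381 without a gene symbol were left out. Genes with a mean of at least 10 over the compared libraries were tested on log2(value + 1) with limma 3.58.1 in R 4.3.3, 2 groups to a fit, with Benjamini-Hochberg adjustment over all genes tested, two-sided, and a call at an adjusted p under 0.05. Fold changes are on that scale, which understates the change of low genes. Cells were kept with at least 500 genes, 1000 UMIs and under 25% mitochondrial UMIs. The threshold that Scrublet set for itself marked 2 to 26 cells a sample and so did not work. Its highest scores were removed instead, at 0.8% for each 1000 barcodes (12 to 207 cells). Epcam-positive cells held at least 1 Epcam UMI and were 64.5% to 99.1% of kept cells. Their counts were summed by sample and tested with edgeR 4.0.16 (TMM scaling, quasi-likelihood), with DESeq2 1.42.0 as an alternative. Both tests were tested on simulated data. Cells and figures were handled with Python 3.11.15, scanpy 1.11.5 and matplotlib 3.10.9.

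The members and lists were chosen with earlier results of these data known. Values by sample were given for the 4 replication and 6 mitosis genes with the largest germ-free to conventionalized difference, for Pcna, Mcm2, Mki67, Top2a and Ccnb1, and, in single cells, for the 3 genes of each list with the most UMIs. From the other lists the 3 largest called differences were named, or the 3 largest tested where none was called. Alternatives were another pseudocount, filter, scaling, fit, mitochondrial limit and thinning depth, a replicate block, and leaving out each library. The cell classes, and a fit without replicate 3 of either diet, were added after the data were seen.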

Additional observations from a re-analysis of the deposited data

Results flagged for a closer look

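In 7 of 156 gene and group combinations of the mRNA table, 1 library lay far from the other 3 of its group. The rule was Dixon's ratio of the gap to the range at its 95% limit, which chance passes in about 1 of 20 groups. The 7 flagged are no more than that rate would give. Chow replicate 3 was low in Mcm2, at 1380.0 normalized counts against 2342 to 2509.7, and in Mcm4, at 734.4 against 1215 to 1302. High fat diet replicate 3 was high in Gins2, at 1906 against 1479 to 1499. High fat diet replicate 1 was high in Ccna2, at 4267.5 against 3208 to 3242, and in Cdc20, at 4245 against 2876 to 3099. Chow replicate 2 was high in Aurkb, at 1914 against 1098 to 1157. Germ-free replicate 2 was high in Nusap1, at 707 against 171 to 214.

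In single cells the sets had opposite signs, and the difference between them was not tested because each set holds 1 sample of each genotype. The median log2 ratio of knockout over wild type for mitosis genes was 0.19 in set 1 and -0.22 in set 2. The share of cells with at least 3 replication genes differed between knockout and wild type by 0.0234 percentage points in set 1 and -1.25 in set 2, and that with at least 3 mitosis genes by 2.95 and -1.65.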

How the results depend on the processing

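Over the alternatives run, no gene of the lists reversed in the germ-free to conventionalized or the high fat diet to chow comparison, while 3 of 546 gene and setting combinations reversed in conventionalized against chow, 5 of 546 in germ-free against chow and 60 of 429 in knockout against wild type. With all 4 groups in the fit, 12 replication and 20 mitosis genes were called in germ-free against conventionalized (1672 of all genes), 3 mitosis genes in germ-free against chow (754 of all genes), and 33 and 26 of all genes in the high fat diet and conventionalized comparisons with chow. Quantile normalization left 1 mitosis gene and moved the median of all genes to -0.02. With no filter on low values, 317, 39 and 1 of all genes were called in the high fat diet, conventionalized and germ-free comparisons with chow, and the medians of all genes in the last 2 were 0.18 and 0.27.

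Same-numbered libraries correlated at -0.354 to 0.463 over all comparisons, and not every library correlated best with its own number. In germ-free against conventionalized the values ran from -0.128 to 0.400. Column names of same-numbered germ-free and conventionalized libraries hold numbers that lie close together. No label says that a number marks a shared litter, batch or day, so same-numbered libraries were not treated as pairs. With a replicate block, 2 replication and 7 mitosis genes were called in germ-free against conventionalized (494 of all genes). In germ-free against chow the block gave 3 replication and 14 mitosis genes (2907 of all genes). It gave 271 and 165 of all genes in the high fat diet and conventionalized comparisons with chow. Wild type and knockout samples of a single-cell set moved together (correlation 0.61), and the block changed no call there.

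Leaving out 1 library in turn, the calls in germ-free against conventionalized ranged from 0 to 5 replication genes, 0 to 12 mitosis genes and 1 to 684 of all genes. In high fat diet against chow they ranged from 0 to 4, 0 to 18 and 0 to 2590, and in conventionalized against chow from 0 to 6 of all genes. Without replicate 3 of either diet 12 of all genes were called. Differences from chow that changed sign ranged from -0.054 to 0.31 for Pcna and from -0.40 to 0.0485 for Cenpf in conventionalized cells, and from -1.09 to 0.018 for Mcm5, from -2.39 to 0.39 for Ccne1 and from -0.37 to 0.51 for Bub1 in germ-free cells. In knockout against wild type the median of replication genes ranged from -0.16 to 0.15 and all genes called from 0 to 1, where DESeq2 called 7. Single genes ranged from -0.0449 to 0.17 for Mcm2, -0.995 to 0.62 for Pcna, -0.0884 to 0.0344 for Ccnb1, -0.15 to 0.0511 for Top2a and -0.18 to 0.41 for Mki67. With the mitochondrial share under 10%, Ccnb1 stood at 0.0325 and Top2a at 0.0286.

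In set 2 the difference in the share of cells was -5.40 percentage points for replication and -5.84 for mitosis with no thinning, and -4.32 for mitosis at 4000 UMIs. Read depth differed between the mRNA groups, and with 2 samples a genotype the single-cell test resolves large differences only. The cause of these changes was not tested.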

Other observations

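Related gene lists also differed in sign between the single-cell sets. Of 44 measured other mitosis genes, 37 were above wild type in set 1 (median log2 ratio 0.20) and 42 below it in set 2 (median -0.21). Of 38 other replication genes, 23 were above in set 1 (median 0.06) and 31 below in set 2 (median -0.14). Of 29 genes of G1 entry, E2F factors and arrest, 19 were above in set 1 and 26 below in set 2. None of these genes passed edgeR's test, and none had an unadjusted p under 0.05. In all genes the medians were 0.05 and -0.15.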
